A study of Mus musculus with 17 samples.

Results

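The genes described here are 33 of the 24537 genes measured in each library: 19 enzymes of glycolysis and 14 genes known to be induced by low oxygen or to act on pyruvate use. They were taken by gene symbol, in the annotation field of each table, from a list of names that used no measured value. All 33 symbols were found in all 17 tables. The study measured RNA with Smart-seq2, a full-length method for small amounts of RNA, in mouse T helper 2 (Th2) cells, the CD4+ T cells that drive allergic airway inflammation. It asked, by its title, how Notch receptors bear on the exit of these cells from the lymph node.

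The 17 libraries fell into 6 groups. Airway lavage Th2 cells of Gata3-YFP reporter mice (GATIR, labelled WT) gave 3 libraries, and mediastinal lymph node Th2 cells of the same kind of mouse gave 3. Lymph node cells labelled OTII_Notch1/2-KO, which carry the ovalbumin-specific OTII T cell receptor and a deletion of Notch1 and Notch2, gave 4 libraries, against 3 of OTII wild type cells from that node. Cultured Th2 cells gave 2 knockout-labelled libraries and 2 wild type ones; they were naive spleen T cells of OTII mice stimulated through CD3 and CD28 for 7 days with IL-4 and with antibodies against IFN-γ and IL-12/23. The mice had allergen-driven airway inflammation, and the lymphocytes were purified by flow cytometry. Which cells drive the Cre recombinase, and which exons it removes, is not given in the labels. Nor do they say that replicates came from separate animals, so p-values below measure the spread between these libraries. The headers of the OTII node libraries carry OVA-HDM, read here as ovalbumin and house dust mite. Headers of the other libraries name no allergen. In the headers, OTII node libraries are numbered KO1-1, KO1-2, KO2-1 and KO2-2, and WT1-1, WT2-1 and WT2-2. What these numbers stand for is not given, and libraries that share a first number may not be independent. In such bulk libraries, fewer cells that express a gene and less of its RNA per cell cannot be told apart.

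Glycolysis splits glucose into pyruvate, which lactate dehydrogenase turns into lactate or which pyruvate dehydrogenase passes on to the mitochondria. Activated T cells are known for running glycolysis fast even with oxygen at hand. Many glycolytic genes are also targets of hypoxia-inducible factor (HIF), a transcription factor that EGLN hydroxylases mark for destruction while oxygen is present; BNIP3, NDRG1, VEGFA and ANKRD37 are products of genes widely used as readouts of it.

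The series as a whole was read to a depth of 16.3 to 27.5 megareads a library. Values are scaled RPKM (RPKM being reads per kilobase of a transcript per megaread, here with a further factor for each library), as mean ± SD over the libraries of a group unless given one by one. Marker genes of T cells (7 genes) were at 1 or more in every library. Notch1 was at 8.01 to 13.0 in knockout-labelled node libraries, against 46.2 to 48.9 in wild type ones, and at 1.06 to 4.23 in knockout-labelled cultures, against 26.3 to 29.4 in wild type cultures. Notch2 was at 14.1 to 18.7 in knockout-labelled node libraries, against 7.53 to 8.08 in wild type ones; since a value over the whole transcript does not check a deletion of unknown extent, these libraries are called by their label throughout. Among 3073 genes at 20 or more in every OTII library, the 3 airway libraries listed 38, 49 and 2 at 0, against 1, 0 and 1 in the node libraries of reporter mice. An airway value of 0 can therefore be a missed transcript, and the airway levels of genes with one are given library by library, those of Egln1 in the closing section.

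To show the DNA ahead of genes that differed often, promoters of members with the most comparisons past the threshold (adjusted p below 0.05 by limma) are printed, from RefSeq (GRCm38.p6). Bnip3, Tpi1, Ldhb and Aldoa had 3 or 4 such comparisons; of the many members with 2, only Ndrg1 and Vegfa were taken, by smallest p. Capitals mark the core of the hypoxia response element, ACGTG or GCGTG, read on either strand (so also CACGT or CACGC). Each run ends at the base before a transcript start, all lie on the minus strand, and positions count back from the start. Ndrg1 is only named. A match is a description of the letters and no evidence of binding.

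The Bnip3 promoter (chr7:138909507-138909756) is shown because its gene passed the threshold in 4 comparisons; it holds 5 matches, with 2 of ACGTG overlapping in 1 CACGTG and 3 of GCGTG, at -117, -99 and -35.
Bnip3: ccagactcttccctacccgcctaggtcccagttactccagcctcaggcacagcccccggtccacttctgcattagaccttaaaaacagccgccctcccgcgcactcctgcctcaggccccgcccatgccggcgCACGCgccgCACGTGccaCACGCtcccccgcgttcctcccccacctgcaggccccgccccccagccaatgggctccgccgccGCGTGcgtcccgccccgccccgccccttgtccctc

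That of Ldhb (chr6:142507958-142508207), the lactate dehydrogenase subunit that stood out between knockout-labelled and wild type node cells, holds 1 GCGTG at -126.
Ldhb: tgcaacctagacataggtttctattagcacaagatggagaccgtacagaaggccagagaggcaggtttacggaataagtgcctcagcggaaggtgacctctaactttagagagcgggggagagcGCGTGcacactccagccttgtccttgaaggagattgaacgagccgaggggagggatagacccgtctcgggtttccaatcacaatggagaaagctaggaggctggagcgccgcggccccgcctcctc

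Aldoa is shown with 2 windows. The first (chr7:126800448-126800697) precedes the start of the transcript that the files use and holds no match, while the second (chr7:126799255-126799504) precedes a start 1193 bases downstream and holds 1 ACGTG at -126.
Aldoa window 1: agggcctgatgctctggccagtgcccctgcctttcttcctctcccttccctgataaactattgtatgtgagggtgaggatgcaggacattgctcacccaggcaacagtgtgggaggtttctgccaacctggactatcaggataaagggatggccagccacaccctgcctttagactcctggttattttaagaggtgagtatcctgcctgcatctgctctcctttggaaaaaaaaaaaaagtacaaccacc
Aldoa window 2: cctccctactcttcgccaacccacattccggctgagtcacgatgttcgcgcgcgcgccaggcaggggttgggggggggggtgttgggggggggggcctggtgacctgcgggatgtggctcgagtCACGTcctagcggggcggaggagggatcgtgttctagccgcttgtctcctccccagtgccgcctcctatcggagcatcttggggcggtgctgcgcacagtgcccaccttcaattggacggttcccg

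For Tpi1 the RefSeq start lies 138 bases inside the transcript of the files, so only the 112 bases before that transcript are printed (chr6:124814297-124814408); they hold no match.
Tpi1: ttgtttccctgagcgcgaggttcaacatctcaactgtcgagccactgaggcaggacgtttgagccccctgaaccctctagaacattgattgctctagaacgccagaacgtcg

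Vegfa has an upstream start, whose window (chr17:46032378-46032627) holds no match, and another start 7214 bases downstream, which is that of the transcript in the reporter tables. The OTII tables use another Vegfa transcript, whose start was not read here. The window of the downstream start lies within the gene, holds ACGTG at -211 and GCGTG at -218, and is not printed.
Vegfa upstream window: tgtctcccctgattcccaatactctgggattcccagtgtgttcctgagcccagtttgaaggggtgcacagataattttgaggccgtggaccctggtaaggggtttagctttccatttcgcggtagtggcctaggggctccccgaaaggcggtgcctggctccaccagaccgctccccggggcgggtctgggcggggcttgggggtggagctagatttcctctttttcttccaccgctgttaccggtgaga

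Windows of 300 bases (250 before and 50 after a start) were found for 31 members, 47 windows in all. At least 1 core was present in 37 of the 47 (78.7%), against 14380 of 32851 mouse promoter windows (43.8%). Counted by gene, 28 of 31 members (90.3%) held one, against 46.7% of 27025 genes. ACGTG alone was in 26 member windows (55.3%, against 19.6% of all) and GCGTG in 27 (57.4%, against 32.4% of all). The full palindrome CACGTG, which includes ACGTG on both strands, was in 4 (8.51%, against 7.15% of all). The list of members draws on genes known to respond to hypoxia, so these shares describe the list and are no test of it.

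Per length, Ldha, the muscle-type lactate dehydrogenase subunit, had the highest level of the 33 in all 6 groups, above at least 99.79% of all genes in each. Aldoa, which splits fructose-1,6-bisphosphate, and Pkm, the last enzyme on the way to pyruvate, took the next places in every group. In airway cells Ldha had 1592, 1314 and 1495, Aldoa 766, 794 and 727, and Pkm 283, 403 and 330. The ranges of these 3 genes did not overlap in those libraries. In knockout-labelled node cells Pkm (407 ± 35.6) and Aldoa (392 ± 40.8) did not differ beyond their spread, whereas in wild type node cells Pkm (447, 521 and 445) lay above Aldoa (409, 445 and 397), the lowest Pkm value being level with the highest Aldoa value. Tpi1, triose phosphate isomerase, came next in all groups except airway cells, where it took rank 7. The low end held Vegfa, a blood vessel growth factor, which was listed at 0 in all 6 reporter libraries, and the enolase isoform Eno2.

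Isoforms of the same step were uneven. Hk2, the hexokinase known to be inducible, made up 4.55 to 7.71% of the summed Hk1 and Hk2 level in OTII node libraries, against 9.93 to 11.9% in OTII cultures. Pfkp, the platelet-type phosphofructokinase subunit, was the main one of 3 in every group, at 68.4 to 76.6% in airway libraries against 51.2 to 59.7% in node libraries of reporter mice. Aldoc was at most 3.11% of the aldolase sum in any library. Several members have near-identical copies elsewhere: of 50-base stretches of their transcripts, 82.5% recur in other genes for Gapdh, 72.2% for Eno1, 68.0% for Pgk1, 62.4% for Bnip3, 41.5% for Pgam1, 36.6% for Higd1a, 34.4% for Pkm, 27.0% for Ldhb, 25.3% for Gpi1, 25.1% for Bnip3l and 19.1% for Ldha. How such reads were shared out is not given in the sources used here, so the levels of these genes are uncertain. The share was 7.51% for Tpi1, 14.4% for Aldoa, 14.6% for Ndrg1, and 0 for Egln3, Ddit4, Pdk1 and Aldoc.

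**Figure D1:**
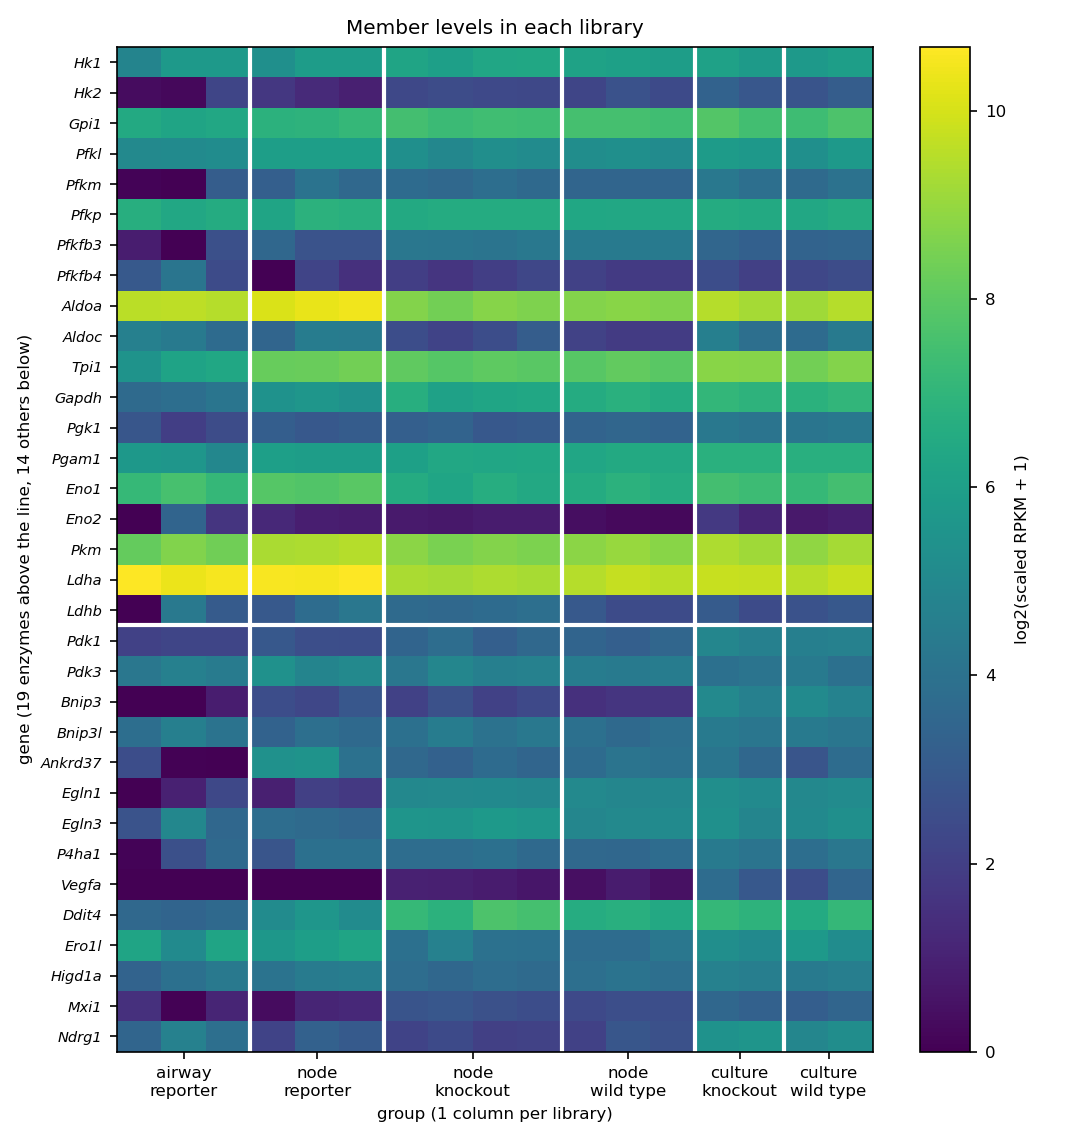
Level of each of the 33 genes (rows) in each of the 17 libraries (columns, by group) as log2(scaled RPKM + 1), shown by colour; the white line parts the 19 enzymes from the 14 other genes. Ldha is the brightest row throughout, Vegfa is at 0 in all 6 reporter libraries, and Bnip3, Ndrg1 and Vegfa are higher in the 4 cultures than in the 7 OTII node libraries.

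The comparisons with the most of these genes past the threshold were those of OTII cells from the lymph node with OTII cells in culture, where place, stimulus and time differ together and cannot be told apart. In wild type cells, 15 of the 32 genes tested were lower in node cells, 1 was higher and 16 did not pass the threshold (limma, adjusted p below 0.05). Over all genes tested, 17.5% were lower and 13.5% higher. In knockout-labelled cells, 20 of 33 were lower in node cells, against 15.3% of all genes, 4 were higher, against 13.7% of all genes, and 9 did not pass. The median log2 difference over the genes described was -0.39 in wild type and -0.58 in knockout-labelled cells, against -0.03 and -0.02 over all genes tested. These comparisons have no library in common, but place, stimulus and time differ together in both. Lower in both were 13 genes, which is 86.7% of the 15 and 65.0% of the 20, and Pfkfb3 was higher in both. The share of all genes lower in both is not given here, so this overlap describes the members alone.

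The largest differences were those of the hypoxia-induced genes Bnip3, Ndrg1 and Vegfa. Bnip3, whose product sits on mitochondria and promotes their removal, had 3.22, 5.27, 3.14 and 4.13 in knockout-labelled node libraries, against 31.9 and 24.1 in knockout-labelled cultures. In wild type cells Bnip3 had 1.81, 2.14 and 2.16 in node libraries, against 33.5 and 25.6 in cultures. No node library came near any culture, in either genotype. The log2 difference was -2.56 (SE 0.20, adjusted p = 6.32e-05) in knockout-labelled and -3.32 (SE 0.15, adjusted p = 1.62e-05) in wild type cells.

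Ndrg1, a stress-induced gene, had 3.44, 4.35, 3.10 and 3.32 in knockout-labelled node libraries, against 43.0 and 47.0 in knockout-labelled cultures. In wild type cells Ndrg1 had 3.17, 6.21 and 5.21 in node libraries, against 29.2 and 37.0 in cultures. Every culture exceeded every node library by several fold, and log2 differences were -3.34 (SE 0.14, adjusted p = 5.01e-06) and -2.57 (SE 0.23, adjusted p = 0.000241).

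Vegfa had 0.949, 0.902, 0.780 and 0.559 in knockout-labelled node libraries, from 35 to 76 reads a library, against 12.6 and 6.72 in knockout-labelled cultures. Wild type node libraries had 0.345, 0.733 and 0.388, from 21 to 52 reads, against 4.82 and 10.2 in wild type cultures. Node levels of Vegfa were thus low in both genotypes and the groups did not overlap, with log2 differences of -2.52 (SE 0.23, adjusted p = 0.00013) and -2.45 (SE 0.28, adjusted p = 0.000615). On the log2(value + 1) scale used, such low levels understate the change.

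Other hypoxia-induced members fell as well. Ero1l, an oxidase of protein folding in the endoplasmic reticulum, averaged 17.1 ± 5.30 in knockout-labelled node cells and 34.8 ± 3.67 in knockout-labelled cultures (log2 difference -1.02, SE 0.22, adjusted p = 0.0108). Its levels were 14.6 ± 2.96 in wild type node cells and 45.2 ± 12.9 in wild type cultures (-1.56, SE 0.21, adjusted p = 0.0014). Mxi1, which encodes an antagonist of MYC, and Higd1a, a mitochondrial protein gene, were lower in both genotypes, by log2 differences of -0.73 and -0.91 in knockout-labelled and -0.83 and -0.52 in wild type cells. Bnip3l, a relative of Bnip3, passed in wild type cells with 13.3 ± 1.54 in node and 18.7 ± 2.17 in culture. P4ha1, a collagen prolyl hydroxylase subunit, passed in knockout-labelled cells with 13.0 ± 1.01 in node and 17.9 ± 2.52 in culture. Ddit4, an inhibitor of mTOR signalling, Ankrd37 and Egln1 did not pass in either genotype. Ankrd37 went the other way in wild type cells, with 14.5 ± 1.93 in node and 9.42 ± 4.89 in culture, with overlap. In knockout-labelled cells it averaged 10.6 ± 1.43 in node and 13.7 ± 4.12 in culture.

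**Figure D2:**
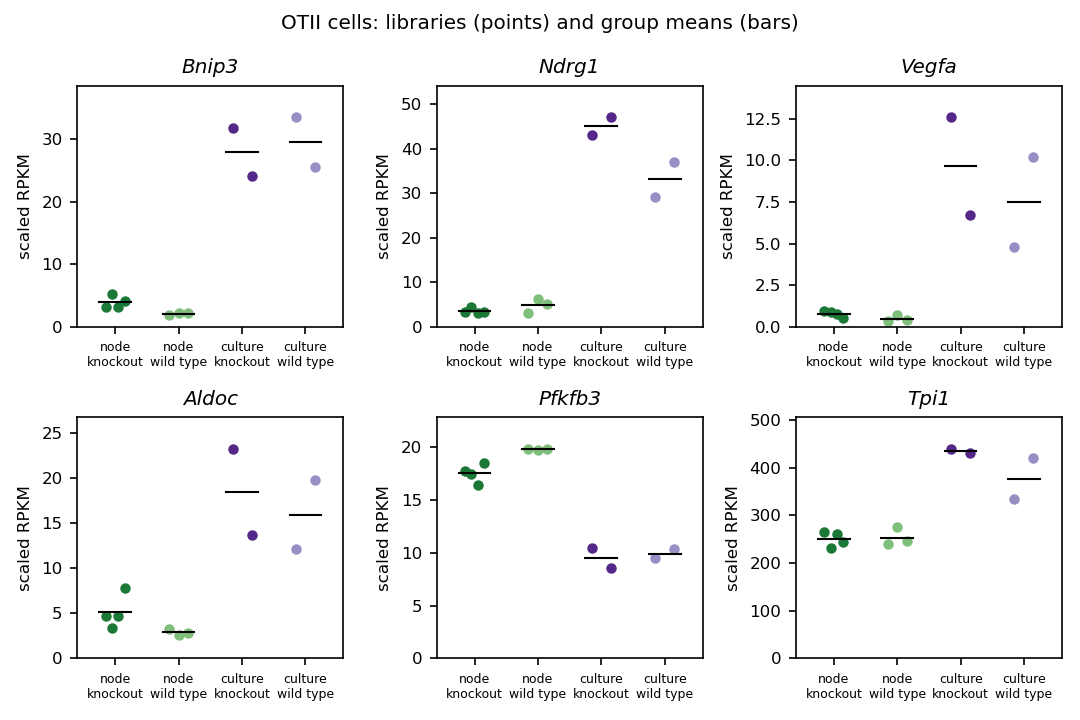
Scaled RPKM of Bnip3, Ndrg1, Vegfa, Aldoc, Pfkfb3 and Tpi1 in each library (points) of the 4 OTII groups, with the group mean as a bar. For 5 of the 6 genes the 7 node libraries lie below all 4 cultures, and for Pfkfb3 they lie above.

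Among the enzymes, the step from fructose-1,6-bisphosphate to triose phosphates was lower in node cells for all 3 members in both genotypes. Aldoc had 4.70, 3.40, 4.74 and 7.84 in knockout-labelled node libraries, against 23.3 and 13.8 in knockout-labelled cultures. It had 3.26, 2.63 and 2.78 in wild type node libraries, against 12.2 and 19.8 in wild type cultures. Groups did not overlap, and log2 differences were -1.66 (SE 0.29, adjusted p = 0.00364) and -2.09 (SE 0.20, adjusted p = 0.000309).

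Tpi1 had 266, 231, 261 and 245 in knockout-labelled node libraries, against 440 and 430 in knockout-labelled cultures, and 240, 275 and 246 in wild type node libraries, against 334 and 419 in wild type cultures. Its log2 differences were smaller, at -0.79 (SE 0.10, adjusted p = 0.000965) and -0.56 (SE 0.13, adjusted p = 0.0157), with no overlap. Aldoa averaged 392 ± 40.8 in knockout-labelled node cells and 664 ± 85.3 in knockout-labelled cultures, and 417 ± 25 in wild type node cells and 647 ± 106 in wild type cultures.

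Of the 6 lower glycolysis genes, which carry triose phosphate on to pyruvate, all were lower in knockout-labelled node cells; in wild type cells 3 of the 5 tested passed. Pgk1, phosphoglycerate kinase, averaged 7.95 ± 1.20 in knockout-labelled node cells and 17.2 ± 1.40 in knockout-labelled cultures (log2 difference -1.04, SE 0.15, adjusted p = 0.00134), and 9.92 ± 0.496 in wild type node cells and 17.6 ± 1.08 in wild type cultures (-0.76, SE 0.11, adjusted p = 0.00211). Eno1, the main enolase, differed by -0.91 and -0.64 and Pgam1, phosphoglycerate mutase, by -0.51 and -0.33. Gapdh, Pkm and Eno2 passed in knockout-labelled cells, at -0.61, -0.59 and -0.68. In wild type cells Gapdh had 100 ± 8.64 in node and 122 ± 12.9 in culture (adjusted p = 0.113) and Pkm 471 ± 43.0 in node and 549 ± 90.5 in culture (adjusted p = 0.275), while Eno2 was too low to be tested.

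Ldha fell in knockout-labelled node cells (627 ± 23.1, against 872 ± 23.5 in culture, log2 difference -0.48, adjusted p = 0.0115). Its wild type values were 778 ± 61.6 in node and 808 ± 94.5 in culture (-0.05, adjusted p = 0.775). Hk2 and Pfkl, the liver-type phosphofructokinase subunit, passed in knockout-labelled cells at -0.77 and -0.58. Their wild type values were 4.52 ± 0.916 in node and 6.86 ± 1.5 in culture for Hk2, and 36.7 ± 2.59 in node and 46.2 ± 9.70 in culture for Pfkl. Hk1, Gpi1, Pfkm and Pfkp passed in neither genotype. Pdk1, a kinase that shuts pyruvate dehydrogenase off, had 9.72, 13.1, 8.27 and 11.3 in knockout-labelled node libraries, against 29.1 and 24.0 in knockout-labelled cultures, and 9.89, 8.35 and 10.6 in wild type node libraries, against 23.5 and 24.5 in wild type cultures. Every node library was below every culture, with log2 differences of -1.26 (SE 0.18, adjusted p = 0.00126) and -1.25 (SE 0.13, adjusted p = 0.000403).

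Pfkfb3, whose product makes the activator fructose-2,6-bisphosphate, went the other way. It had 17.7, 17.4, 16.4 and 18.5 in knockout-labelled node libraries, against 10.4 and 8.58 in knockout-labelled cultures, and 19.8 in each of the 3 wild type node libraries, against 9.47 and 10.3 in wild type cultures. The groups were far apart for their spread (log2 difference 0.82, SE 0.12, adjusted p = 0.00134, and 0.93, SE 0.10, adjusted p = 0.00061). Its relative Pfkfb4 was lower in wild type node cells, at 2.76 ± 0.328 against 4.20 ± 0.580 in culture (adjusted p = 0.046). In knockout-labelled cells alone, Ldhb (12.3 ± 1.08 in node, 5.84 ± 2.08 in culture), Egln3 (48.3 ± 3.38 in node, 34.2 ± 8.40 in culture) and the second pyruvate dehydrogenase kinase Pdk3 (23.8 ± 4.68 in node, 15.5 ± 1.37 in culture) also rose. Whether a node to culture difference itself differed between genotypes is the interaction given further on, which only Ldhb passed.

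**Figure D3:**
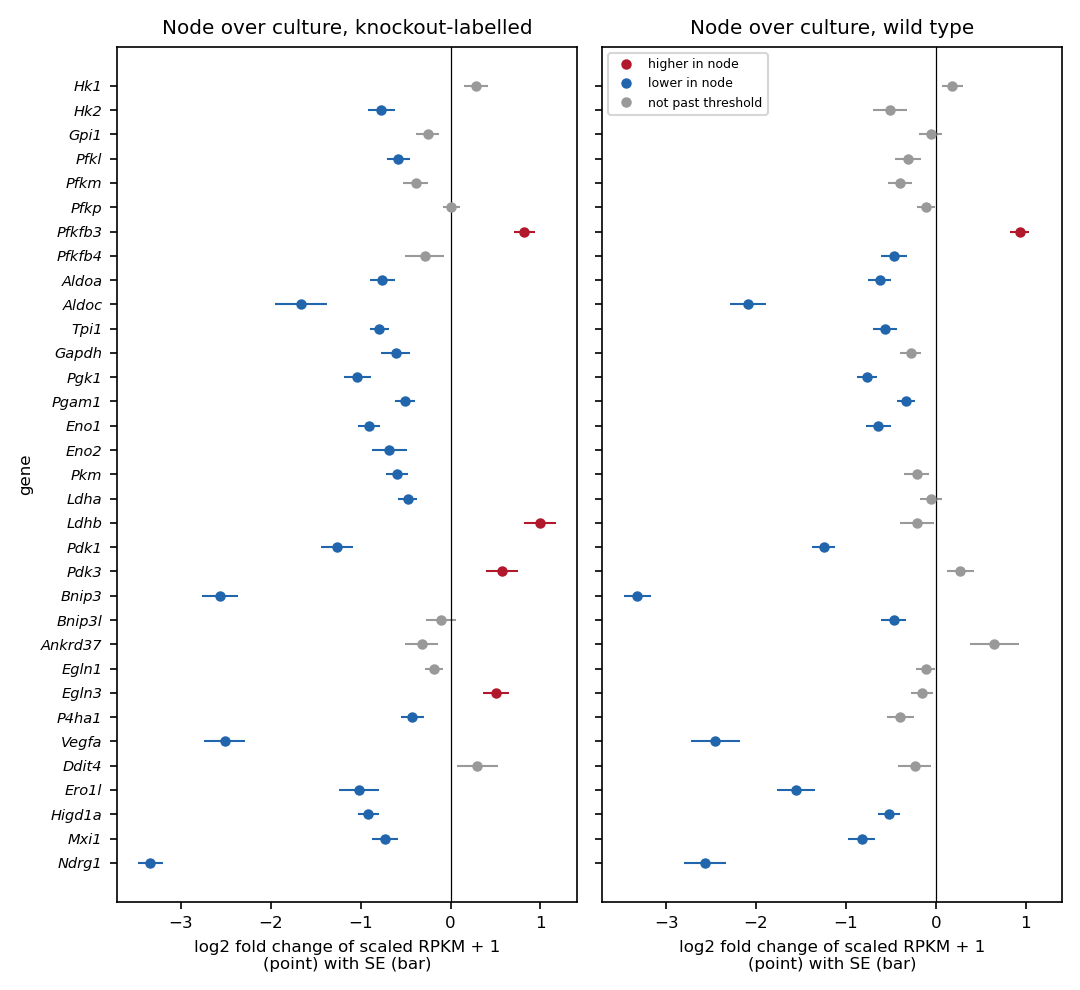
Log2 difference, node over culture, with its standard error (bars) for each gene tested, in knockout-labelled cells (left) and wild type cells (right); red genes are higher, blue genes lower and grey ones not past the threshold. Blue points are 20 on the left and 15 on the right, and Pfkfb3 is red on both sides.

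Leaving out a knockout-labelled culture leaves 1 in that group, and lower calls then fell among these genes and over all genes tested alike. That loss is therefore not particular to these genes. Leaving out a knockout-labelled node library left 17 to 20 lower genes, and 1268 to 2229 of all genes, against 1714 with every library. The higher ones numbered 2 without node replicate 3, node replicate 4 or culture replicate 2. In wild type cells the lower genes numbered 9 without node replicate 1 and 10 without node replicate 3. Over all genes 1306 and 1373 were then lower, against 1946 with every library. Bnip3, Ndrg1, Vegfa, Pdk1, Pgk1 and Pfkfb3 passed in both genotypes whichever library was left out. Lost without 1 library were the calls of Tpi1 and Higd1a (wild type node replicate 1 or 3), Eno1 (wild type node replicate 1), Pfkfb4, Pgam1 and Bnip3l (at least 4 of the 5 libraries) in wild type cells. In knockout-labelled cells Hk2, Aldoa, Aldoc, Pkm and Mxi1 lost it without culture replicate 1, Pfkl, Pgam1, Ldha and Ero1l without culture replicate 1 and also without replicate 2, and Gapdh, Eno2, Pdk3, Egln3 and P4ha1 without any 1 of 3 to 5 libraries. The 15 cell cycle markers moved too: their summed level was 1205 to 1468 in knockout-labelled node libraries, against 1862 to 2223 in culture (10 of 15 lower), and 1555 to 1763 in wild type node libraries, against 2020 to 2103 in culture (6 of 15 lower). Their part in these differences was not tested.

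Related genes outside the 33 were read in the same way. Over all genes tested, 15.3% were lower and 13.7% higher in knockout-labelled node cells. In wild type node cells these shares were 17.5% and 13.5%. Of 7 glucose and lactate transporter genes tested, 6 were lower in knockout-labelled node cells and 4 in wild type node cells. Slc2a6, a glucose transporter, averaged 5.46 in knockout-labelled node cells and 33.8 in culture (log2 difference -2.44), and 2.94 in wild type node cells and 22.7 in culture (-2.56). Slc16a3, which exports lactate, averaged 13.7 in knockout-labelled node cells and 54.2 in culture, and 9.76 in wild type node cells and 43.0 in culture. Of other genes known to be induced by hypoxia, 9 of 24 were lower and 2 higher in knockout-labelled node cells, and 11 of 25 lower and 1 higher in wild type node cells. Stc2, a secreted glycoprotein gene, fell in both (8.16 in knockout-labelled node cells and 31.7 in culture; 7.25 in wild type node cells and 24.0 in culture). Bhlhe40, a transcription factor gene of helper T cells, rose in both (84.9 in knockout-labelled node cells and 25.1 in culture; 103 in wild type node cells and 31.1 in culture). Of 10 HIF pathway genes, 2 rose and 1 fell in knockout-labelled node cells, and 2 rose and 2 fell in wild type node cells. Hif1a, the oxygen-regulated subunit, was lower in wild type node cells (59.4, against 101 in culture, log2 difference -0.75, adjusted p = 0.00964). Epas1, which encodes HIF-2α, was lower in knockout-labelled node cells (40.6, against 73.2 in culture) and higher in wild type node cells (107, against 65.7 in culture). Hif3a, a shorter relative, was higher in knockout-labelled node cells (2.88, against 1.65 in culture) and lower in wild type node cells (0.656, against 1.48 in culture), and Arnt, the constant partner of HIF, was higher in both. Of 7 regulators of glycolysis, 3 were lower in knockout-labelled node cells (Txnip, Myc and Prkaa1) and 2 in wild type node cells (Txnip and Prkaa1). Txnip, which restrains glucose uptake, had log2 differences of -1.37 and -1.84.

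Airway cells of reporter mice were set against node cells of reporter mice to see how Th2 cells that reached the airway lumen differ from those still in the node. Of the 32 genes tested, 8 were lower in airway cells, against 2.30% of all genes tested, none was higher, against 2.97% of all genes, and 24 did not pass (limma, adjusted p below 0.05). At an unadjusted p below 0.05 (limma), 14 were lower and 2 higher, against 1084 lower and 932 higher of all 10111 genes tested. The median log2 difference was -0.57, against -0.07 over all genes tested. The lower genes were 5 enzymes (Tpi1, Pkm, Gapdh, Aldoa and Pfkl) and 3 hypoxia-induced genes (Ddit4, Ankrd37 and Bnip3). The 19 enzymes summed to 3131 to 3179 in airway libraries, against 4235 to 4864 in node libraries, or 0.780 to 0.790% of all RPKM against 1.14 to 1.31%.

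Tpi1 had 43.3, 72.6 and 80.2 in airway libraries, against 293, 303 and 343 in node libraries. The highest airway value was far below the lowest node value (log2 difference -2.29, SE 0.23, adjusted p = 0.00139). It kept its call without any single library, with an adjusted p of at most 0.0149. Pkm had 283, 403 and 330 in airway libraries, against 636, 666 and 722 in node libraries. Airway Pkm was lower in every library (-1.01, SE 0.15, adjusted p = 0.0077), and the call was lost without node replicate 3 (adjusted p = 0.0578).

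Aldoa had 766, 794 and 727 in airway libraries, against 1089, 1266 and 1379 in node libraries. These did not overlap (log2 difference -0.70, SE 0.12, adjusted p = 0.0115), though the call was lost without node replicate 2 or 3. Gapdh averaged 14.1 ± 2.57 in airway and 43.7 ± 3.66 in node cells (-1.58, SE 0.26, adjusted p = 0.0113), and Pfkl 33.6 ± 2.03 in airway and 62.5 ± 0.790 in node cells (-0.88, SE 0.19, adjusted p = 0.0346). Gapdh lost its call without any 1 of the node libraries (adjusted p up to 0.0873), and Pfkl without any 1 of the 6 (up to 0.163).

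Ldha stood apart from those enzymes. It had 1592, 1314 and 1495 in airway libraries, against 1537, 1461 and 1639 in node libraries. The groups overlapped, and the log2 difference was -0.08 (SE 0.11, adjusted p = 0.75). Ldhb had 0, 18.7 and 7.33 in airway libraries, against 6.99, 12.8 and 18 in node libraries, also overlapping. Gpi1, glucose phosphate isomerase, averaged 82.0 ± 7.95 in airway and 124 ± 12.5 in node cells (adjusted p = 0.0834). Eno1 averaged 156 ± 27.1 in airway and 231 ± 13.9 in node cells (adjusted p = 0.0783). For both, the groups did not overlap. The same was true, without a call, of Pgam1, Pgk1, Pdk1, Pdk3, Pfkm and Pfkfb3, with airway lower (in Pfkm and Pfkfb3 through airway values that include a 0). It was also true of Pfkfb4 and Ndrg1, with airway higher. The share of all genes tested whose groups did not overlap is not given here. Lack of overlap without a call is therefore a description only. Pfkm, the muscle-type phosphofructokinase subunit, had 0.0612, 0 and 7.89 in airway libraries, against 8.28, 15.9 and 11.1 in node libraries. Eno2 had 0, 9.72 and 2.14 in airway libraries, against 1.33, 0.879 and 0.769 in node libraries, with overlap. Pfkfb3 had 0.796, 0 and 5.17 in airway libraries, against 10.7, 5.68 and 5.56 in node libraries. Pfkfb4 had 7.01, 16.7 and 4.41 in airway libraries, against 0, 3.53 and 1.77 in node libraries.

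Of the hypoxia-induced genes, Ddit4 had 11.2, 9.81 and 11.5 in airway libraries, against 34.1, 47.3 and 34.3 in node libraries (log2 difference -1.72, SE 0.28, adjusted p = 0.0108). Its airway values were tightly grouped below all node values. Ankrd37 had 4.75, 0.0577 and 0 in airway libraries, from 75, 1 and 0 reads, against 41.3, 44.2 and 15 in node libraries (-4.10, SE 0.76, adjusted p = 0.0174). Bnip3 had 0, 0 and 0.814 in airway libraries, from 0, 0 and 27 reads, against 4.79, 3.84 and 6.46 in node libraries (-2.28, SE 0.51, adjusted p = 0.035). With a pseudocount of 0.1, without the filter on low values or by limma voom on reads, neither Ankrd37 nor Bnip3 passed. Ndrg1 had 10.03, 25 and 14.1 in airway libraries, against 3.44, 8.95 and 7.14 in node libraries, so it lay higher there in each (1.20, SE 0.49, adjusted p = 0.213). Ero1l averaged 61.0 ± 23.6 in airway and 62.2 ± 13.4 in node cells, with overlap, and Vegfa was listed at 0 in both groups.

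**Figure D4:**
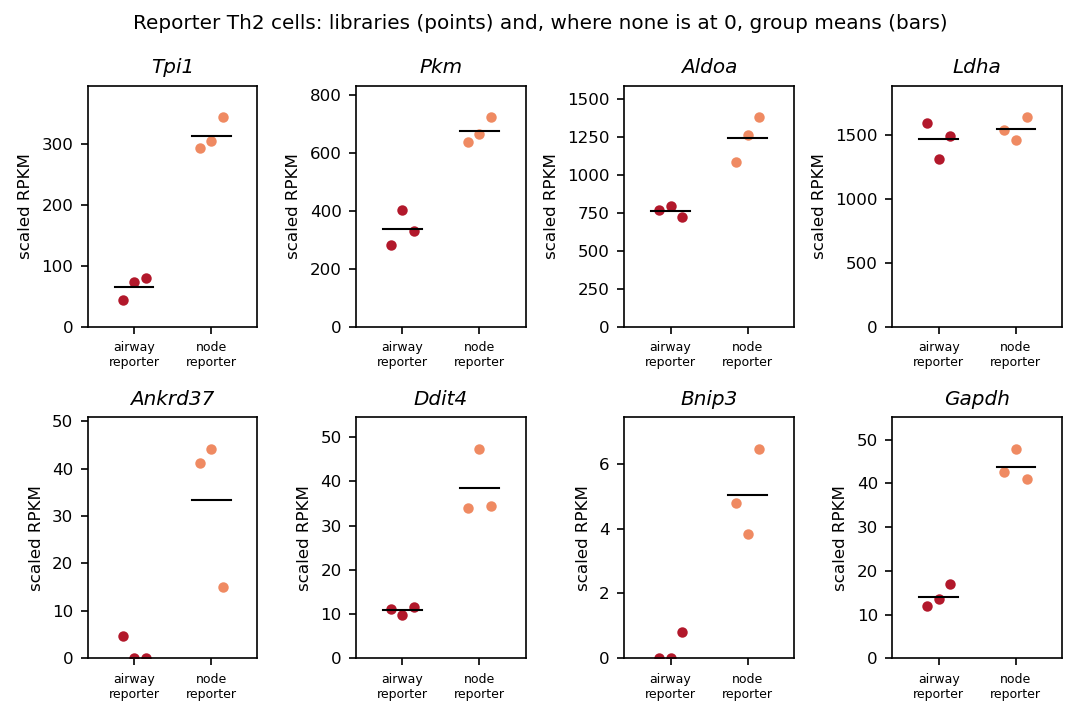
Scaled RPKM of Tpi1, Pkm, Aldoa, Ldha, Ankrd37, Ddit4, Bnip3 and Gapdh in each airway library (left points) and each node library of reporter mice (right points), with the group mean as a bar where no library is at 0. All genes but Ldha have their 3 airway values below their 3 node values.

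Without node replicate 1, 2 or 3 the lower genes numbered 3, 2 and 1, and without airway replicate 1, 2 or 3 they numbered 6, 7 and 7. Over all genes, lower calls numbered 43, 45 and 30 without node replicate 1, 2 or 3, against 233 with every library. They numbered 266, 209 and 295 without airway replicate 1, 2 or 3, so the loss without a node library was not particular to these genes. Ddit4 lost its call without any 1 of the node libraries (adjusted p up to 0.0913), Ankrd37 without airway replicate 3 or any 1 of the node libraries, and Bnip3 without airway replicate 1 or 2 or any 1 of the node libraries. With RPKM as deposited, 10 of the genes were lower, and over all genes the split turned to 229 higher and 317 lower, against 300 higher and 233 lower. Macrophage markers were present in airway libraries: the 13 genes summed to 3491 to 7864, against 80.9 to 132 in node libraries, with 9 of 13 at 1 or more in every airway library and Ear2, Marco, Itgax, Adgre1, Mrc1 and Fcgr3 at 0 in all node libraries. Basophil and mast cell markers (6 genes) summed to 148 to 276 in airway libraries, against 554 to 880 in node libraries, with Fcer1a, Ms4a2 and Gata2 at 0 in both groups. The cell cycle markers summed to 272 to 341 in airway libraries, against 1172 to 1717 in node libraries, and 12 of 15 were lower. The part of these cells and of the cell cycle in the results above was not tested.

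Genes around the pathway moved in both directions, as did all genes tested, of which 2.97% were higher and 2.30% lower in airway cells. Hif1a averaged 151 ± 44.5 in airway and 60.4 ± 0.131 in node cells (log2 difference 1.26, adjusted p = 0.0151), the only 1 of 9 HIF pathway genes tested to pass. Of 20 other genes known to be induced by hypoxia, 2 rose and 3 fell. Bhlhe40 averaged 151 in airway and 73.6 in node cells, and S100a10, which encodes an annexin partner, 1790 in airway and 1108 in node cells. Mif, a cytokine gene, averaged 30.3 in airway and 75.6 in node cells. Both others that fell were picked with their values in view: Adm, which encodes a vasodilator peptide, was listed at 0 in all airway libraries, and Fam162a averaged 51.9 in airway and 103 in node cells. None of 7 transporter genes tested passed. The part of the macrophage RNA, the basophil markers and the cell cycle described above in these differences was not tested either.

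Knockout-labelled node cells were set against wild type node cells, the comparison on Notch in the tissue. Of the 31 genes tested, 4 rose in knockout-labelled cells, against 10.4% of all genes tested, 2 fell, against 7.68% of all genes, and 25 did not pass. The median log2 difference was 0.05, against 0.02 over all genes. The share of these genes that passed was thus near that of all genes. Ldhb, Egln3, Bnip3 and Ddit4 were higher, and Ldha and Ankrd37 lower.

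The subunits of lactate dehydrogenase were called in opposite directions, Ldha less firmly. Ldhb, the heart-type subunit, had 11.9, 11.3, 12.4 and 13.8 in knockout-labelled node libraries, against 6.81, 4.43 and 4.44 in wild type ones. All 4 knockout-labelled values exceeded all 3 wild type values (log2 difference 1.12, SE 0.14, adjusted p = 0.00106). Ldha had 641, 602, 651 and 614 in knockout-labelled libraries, against 721, 843 and 769 in wild type ones. Here every knockout-labelled value was the lower (-0.31, SE 0.08, adjusted p = 0.0347). The Ldha call was lost without the filter on low values, with a replicate block, and with libraries sharing a header number averaged or blocked (adjusted p up to 0.286). Ldhb was 1.93 ± 0.180% of the summed level of both in knockout-labelled and 0.677 ± 0.225% in wild type node cells, and so remained a small part of it in both.

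Egln3, a HIF hydroxylase gene, had 46.3, 45.4, 53.0 and 48.6 in knockout-labelled node libraries, against 29.3, 31.9 and 33.8 in wild type ones. There was a clear gap between the groups (log2 difference 0.59, SE 0.09, adjusted p = 0.00204). Egln1, the other hydroxylase gene, averaged 31.2 ± 1.01 in knockout-labelled and 30.1 ± 1.22 in wild type node cells (adjusted p = 0.681).

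Bnip3 was higher in knockout-labelled node cells, at 3.94 ± 0.995, than in wild type node cells, at 2.04 ± 0.195 (log2 difference 0.68, SE 0.16, adjusted p = 0.017), with no overlap between the values given above. Ddit4 had 140, 114, 208 and 184 in knockout-labelled libraries, against 97.7, 105 and 86.1 in wild type ones. Its lowest knockout-labelled value was close to the highest wild type one (0.71, SE 0.19, adjusted p = 0.0323). Ankrd37 had 11.1, 8.95, 12.3 and 10.1 in knockout-labelled libraries, against 12.5, 16.3 and 14.8 in wild type ones, just without overlap (-0.42, SE 0.13, adjusted p = 0.049).

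Ldhb and Egln3 kept their calls without any single library, with adjusted p of at most 0.00728 and 0.0127. The others did not. Over all genes, leaving out 1 library gave 606 to 1559 higher and 402 to 1157 lower, against 1130 and 835. Higher genes among the 33 numbered 2 without any 1 of the wild type libraries or without knockout-labelled replicate 4, and 7 without knockout-labelled replicate 2. Bnip3 lost its call without any 1 of the wild type libraries or knockout-labelled replicate 4 (adjusted p up to 0.0655), and Ddit4 without these or knockout-labelled replicate 3 (up to 0.119). Lower genes numbered 0 when knockout-labelled replicate 4 was left out, and likewise for replicates 2 and 3 of the wild type; the number was 1 without knockout-labelled replicate 3, and 3 without wild type replicate 1. Ldha lost its call in 4 cases, namely with replicates 3 and 4 of the knockout-labelled or replicates 2 and 3 of the wild type left out (adjusted p up to 0.167), and Ankrd37 without 5 of the 7 libraries (up to 0.200). Ankrd37 was also not called under 6 of the other settings (up to 0.233), Ddit4 without the filter on low values or with a replicate block (up to 0.164), and Bnip3 with a replicate block (0.0838).

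The other enzymes did not pass. Aldoc averaged 5.17 ± 1.89 in knockout-labelled and 2.89 ± 0.328 in wild type node cells (adjusted p = 0.0708), Pfkm 12.1 ± 0.995 in knockout-labelled and 10.2 ± 0.132 in wild type cells (adjusted p = 0.108), and Pgk1 7.95 ± 1.20 in knockout-labelled and 9.92 ± 0.496 in wild type cells (adjusted p = 0.115). For these 3 the groups did not overlap, which is a description only, since the share of all genes without overlap is not given here. The log2 differences of the 5 lower glycolysis genes tested were all negative, between -0.30 and -0.13, and none passed. Tpi1 had a log2 difference of -0.01 (SE 0.08, adjusted p = 0.927). Eno2, which was below the level needed for a test, had 0.703, 0.622, 0.772 and 0.744 in knockout-labelled libraries, against 0.334, 0.219 and 0.182 in wild type ones. The cell cycle markers summed to 1205 to 1468 in knockout-labelled node libraries, against 1555 to 1763 in wild type ones (5 of 15 lower). Their part in the results above was not tested.

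**Figure D5:**
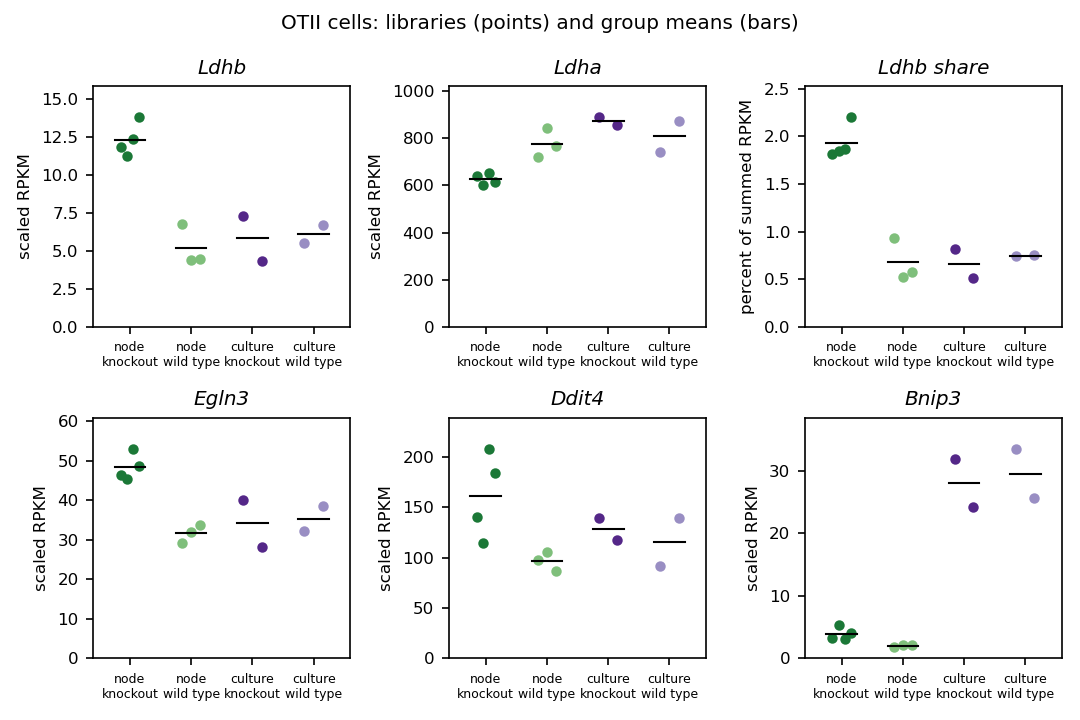
Ldhb, Ldha, Egln3, Ddit4 and Bnip3 as scaled RPKM, and Ldhb as percent of the summed Ldha and Ldhb level, in each library (points) of the 4 OTII groups with the group mean as a bar. In the node the 4 knockout-labelled libraries lie above the 3 wild type ones for Ldhb, its share, Egln3, Ddit4 and Bnip3, and below them for Ldha, while the cultures overlap.

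Outside the 33, 2 of 10 HIF pathway genes passed, 1 higher and 1 lower. That is near the share over all genes tested, of which 10.4% were higher and 7.68% lower. Hif3a averaged 2.88 in knockout-labelled and 0.656 in wild type node cells (log2 difference 1.23, adjusted p = 0.000167), and Epas1 40.6 ± 7.66 in knockout-labelled and 107 ± 19.7 in wild type cells (-1.38, adjusted p = 0.000897). Of 21 other genes known to be induced by hypoxia, 6 rose and 3 fell. Cited2, a competitor of HIF for its coactivator, averaged 43.9 in knockout-labelled and 18.9 in wild type cells, Zfp395 17.2 in knockout-labelled and 9.29 in wild type cells, and Plod2, a collagen lysyl hydroxylase gene, 3.49 in knockout-labelled and 1.54 in wild type cells. Those that fell, picked with their values in view, were Car12, Mif and Maff (0.923, 59.9 and 0.896 in knockout-labelled, and 1.99, 90.5 and 1.82 in wild type cells). Of 7 transporter genes, 3 rose: Slc2a6 (5.46 in knockout-labelled and 2.94 in wild type cells), Slc2a8 (12.6 in knockout-labelled and 7.85 in wild type cells) and Slc16a3 (13.7 in knockout-labelled and 9.76 in wild type cells). The 1 that fell, Slc2a1, the main glucose transporter of activated T cells, was picked with its values in view (18.1 in knockout-labelled and 24.3 in wild type cells, adjusted p = 0.0413). Myc, which drives glycolytic genes in T cell activation, averaged 17.9 in knockout-labelled and 29.2 in wild type cells (-0.67, adjusted p = 0.0186), and Txnip 112 in knockout-labelled and 73.2 in wild type cells (0.60, adjusted p = 0.00367).

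In culture, none of the 33 genes tested passed in either direction between knockout-labelled and wild type cells, and by limma 0% of all genes did. Notch1, at 26.3 to 29.4 in wild type and 1.06 to 4.23 in knockout-labelled cultures, was not called either. With 2 libraries a group, this test can thus miss large differences. Over all 10968 genes tested, 107 were higher and 149 lower at an unadjusted p below 0.05 (limma). Of the 33, 2 were higher and none lower at that level. These were Ndrg1, at 43.0 and 47.0 in knockout-labelled and 29.2 and 37.0 in wild type cultures (log2 difference 0.44, SE 0.17, unadjusted p = 0.0334), and Eno2, at 2.46 and 1.18 in knockout-labelled and 0.653 and 0.855 in wild type cultures (0.65, SE 0.27, unadjusted p = 0.0423). By limma voom on reads none of the 33 passed, and 1 gene of all tested was higher and 1 lower. The median log2 difference was 0.11, against 0.00 over all genes tested. The cultures of a genotype differed from each other as a whole: knockout-labelled replicate 1 was above replicate 2 in all 19 enzymes, and wild type replicate 2 above replicate 1 in 18 of 19.

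The interaction asks whether the knockout effect in the node differed from that in culture. It passed for Ldhb, at a log2 value of 1.20 (SE 0.28, adjusted p = 0.0418), 1 of 33 genes against 2.35% of all genes higher; none was lower, against 1.49% of all genes. Ldhb had 7.31 and 4.37 in knockout-labelled cultures, against 5.52 and 6.69 in wild type ones, so the culture groups overlapped while the node groups did not. This call was lost without any 1 of 8 of the 11 libraries (adjusted p up to 0.174): wild type node replicates 2 and 3, knockout-labelled node replicates 1, 3 and 4, both wild type cultures and knockout-labelled culture replicate 2. Egln3 (0.66, SE 0.20, adjusted p = 0.0991), Bnip3 (0.76, SE 0.27, adjusted p = 0.161) and Ldha (-0.42, SE 0.15, adjusted p = 0.149) did not pass, so their effects were not shown to differ between node and culture. Of the genes around the pathway, Epas1 (-1.54, adjusted p = 0.0159), Hif3a (1.16, adjusted p = 0.0237) and Cited2 (1.23, adjusted p = 0.0307) passed.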

How the data were processed

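Smart-seq2 libraries of mouse Th2 cells were analysed from 1 table per library. The authors deposited RPKM for 24537 genes, each under 1 RefSeq transcript on mm10; per the submitters' processing notes, HISAT2 2.0.4, HOMER and DESeq2 were used, with steps and settings not given in the sources used here. Of the 33 genes, Gapdh and Vegfa have another transcript in the reporter tables than in the OTII tables. Smart-seq2 does not mark strand, so reads of overlapping genes cannot be told apart. Low values times transcript length came out as whole reads for 99.2 to 99.9% of values below 100 reads (tolerance 0.1 read), which gave depths of 16.3 to 27.5 megareads; such reads entered 1 alternative test only.

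Each library was divided by its own median-of-ratios factor, taken over the 6796 genes at 1 or more in all 17 libraries, 21 of the 33 among them. Tests used limma 3.58.1 (lmFit, eBayes with trend, R 4.3.3) over the libraries compared, and all 11 OTII libraries for the interaction. They were two-sided, ran on log2(scaled RPKM + 1), and called genes at 0.05 after Benjamini-Hochberg adjustment across the whole table. To be tested, a gene had to reach 1 in a number of libraries equal to the size of the smaller group. A log2 difference on this scale understates the change of low genes. Samples were grouped by their titles. All 33 genes are named; of the lists around them, genes that passed are named, at most the 3 of smallest p per list and comparison. The members, lists and rules were chosen with earlier results of these data known. Alternatives were RPKM as deposited, scaling over the compared libraries, a pseudocount of 0.1, no filter, limma voom on reads, a replicate block, 1 fit of the 4 OTII groups and leaving out each library; averaging or blocking by header number and a crossed block were added after seeing the data.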

Additional observations from a re-analysis of the deposited data

Results flagged for a closer look

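In the only group large enough for a check of single libraries, the 4 knockout-labelled node libraries, 2 of the 33 genes had a library far from the other 3, and such a check marks about 1 in 20 genes by chance. Pfkp was at 87.4 in replicate 1, against 92.7 to 93.6 in the others. Ero1l was at 25.1 in replicate 2, against 14.2 to 14.8 in the others. Ldhb is listed because its knockout effect differed between node and culture by 1.20 on the log2 scale, in the test of that difference.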

How the results depend on the processing

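None of the counts and calls for the 33 genes reversed direction. Over all genes the airway split did turn, from more higher than lower (300 and 233) to 229 higher and 317 lower with RPKM as deposited, and 236 higher and 295 lower without airway replicate 3. Without the filter on low values, 5 genes were lower in airway cells, 0 lower in knockout-labelled node cells, 2 higher in knockout-labelled node against culture, and 0 past the interaction; over all genes, airway against node gave 224 calls, and 244 by limma voom, against 533. For genes lower in knockout-labelled node cells, limma voom gave 1, 1 fit of the 4 OTII groups 1, and averaging or blocking by header number 0; averaging left 0 of the 33 and 257 of all genes past the interaction, against 442. In culture, limma voom called 2 of all genes and 1 fit of the 4 OTII groups 1, against 0. The cause was not tested.

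Same-numbered libraries did not deviate alike in reporter mice (correlations -0.006 to 0.010) or in node (-0.483 to -0.035). Differently numbered node libraries ran from -0.605 (knockout-labelled replicate 1, wild type replicate 3) to 0.659 (knockout-labelled replicate 2, wild type replicate 3). What links those libraries was not tested. In culture the value was -0.233, and 0.233 when crossed. With 2 libraries a group these mirror each other, so they cannot decide on pairing there. Between node and culture, with 2 pairs a genotype, values were 0.129 and 0.135 in knockout-labelled and -0.092 and 0.452 in wild type cells. With replicate numbers as a block, node calls were 2 higher and 0 lower of the 33 and 636 of all genes, against 1965. Culture calls were 65. Node against culture gave 2 higher in each genotype, and 1932 of all genes in knockout-labelled cells, against 3251. The interaction gave 0 of the 33 and 166 of all genes. A crossed pairing in culture, added after seeing the data, gave 8 calls.

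Leaving out 1 library at a time, the 33 held 1 to 7 lower genes in airway cells (all genes 113 to 554), 2 to 7 higher and 0 to 3 lower in knockout-labelled node cells (1008 to 2716), and 0 to 65 calls of all genes in culture. Node against culture gave 1 to 2 higher and 9 to 17 lower in wild type (2194 to 4363), and 2 to 5 higher and 8 to 20 lower in knockout-labelled cells (1703 to 4235). The interaction gave 0 to 2 higher and 0 to 1 lower (195 to 555). Airway libraries varied most, with a median coefficient of variation of 32.2% over these genes.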

Other observations

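Further lists around the pathway add values not given above. Between knockout-labelled and wild type node cells, 10.4% of all genes tested were higher and 7.68% lower. Of 12 genes of pyruvate entry into mitochondria tested between knockout-labelled and wild type node cells, Pdk2, another pyruvate dehydrogenase kinase, rose (3.82 in knockout-labelled and 1.93 in wild type cells), as did Pdpr (11.5 in knockout-labelled and 9.32 in wild type cells). Of 11 other glycolytic genes, Gpd2, the mitochondrial glycerol phosphate dehydrogenase, averaged 4.24 in knockout-labelled and 7.68 in wild type node cells, and Adpgk 9.45 in knockout-labelled and 13.2 in wild type node cells; both passed. Of 7 pentose phosphate genes, G6pdx, which opens that pathway, averaged 21.7 in knockout-labelled and 26.3 in wild type node cells and passed, and none of the 7 passed between airway and node. Pdp2, a phosphatase that turns pyruvate dehydrogenase back on, was lower in node cells of both genotypes than in culture (2.39 in knockout-labelled node cells and 5.74 in culture; 2.48 in wild type node cells and 5.91 in culture).

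Reporter and OTII libraries were not compared by a test, since the mice, the stimulus and the tables differ. Egln1 was at 0, 0.987 and 3.94 in airway libraries and 0.931, 3.06 and 2.46 in node libraries of reporter mice, and between 29.3 and 38.0 in all 11 OTII libraries, under the same transcript. Aldoa lay between 727 and 1379 in the 6 reporter libraries, and between 334 and 724 in the OTII libraries.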
